A study of Mus musculus with 16 samples.

Results

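The 7 genes described here, Slc9a3, Slc26a3, Slc4a4, Cftr, Car2, Aqp1 and Aqp9, encode ion exchangers, a chloride channel, a carbonic anhydrase and water channels of the epithelium that takes up fluid leaving the testis. They were chosen by gene symbol, and every probe set that carries exactly 1 of these symbols was used: 17 of the 34958 probe sets with 1 symbol on the array, for 7 of the 18194 genes tested. Each gene was tested through its brightest probe set, and other probe sets of Slc26a3, Slc4a4 and Aqp9 are given beside it for some comparisons.

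Efferent ducts and caput epididymis were collected from adult male 129BL/6 mice, with 16 arrays in 8 groups of 2. In each tissue the groups were castrated mice given testosterone propionate (0.015 mg), castrated mice given estradiol (0.015 mg), castrated mice given vehicle alone (100 µL of sesame oil with 10% ethanol), and sham-operated mice given vehicle. Injection was on day 14 after surgery and tissue was taken 12 hours later, so the hormone groups had been without a testis for the same time as the castrated vehicle group. Both hormone groups are set against the same castrated vehicle arrays, and neither was given to sham-operated mice. The labels do not say whether the 2 arrays of a group came from separate animals, so the p-values measure the spread between these arrays, which may be technical. Efferent duct RNA was amplified from 50 ng with the Ovation kit, and caput RNA was labelled from 10 µg with the One-Cycle kit, so that tissue and labelling kit cannot be told apart.

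The efferent ducts are narrow tubules that join the rete testis to the epididymis and resorb most of the fluid in which sperm leave the testis. Sodium enters their nonciliated cells through the apical sodium/proton exchanger encoded by Slc9a3, chloride enters in exchange for bicarbonate, and water follows through aquaporins. Cytosolic carbonic anhydrase supplies protons and bicarbonate, and bicarbonate leaves the cell on the basal side through the cotransporter encoded by Slc4a4. Estrogen receptor alpha is abundant in this epithelium, and mice that lack it retain fluid in the efferent ducts and have little Slc9a3. The caput epididymis goes on to set the acidity and composition of the luminal fluid around sperm.

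Intensities are linear and scaled by the submitters so that the trimmed mean of each array is 125. The background of an array was taken as its highest bacterial control intensity, and ranged from 2.33 to 14.3. Probe sets differ in how brightly they hybridise, so levels are compared between arrays and never between genes. Where the arrays of 2 groups are said to overlap or not, this describes 2 arrays against 2 and is no test. Arrays of an unchanged gene can lie apart in this way too, and the share of all genes without overlap is not given. The efferent duct arrays fell into 2 sets by quality: the log2 ratio of the 3′ to the 5′ actin probe set was 0.91 to 1.93 on the 4 hormone arrays, against 3.11 to 3.87 on the 4 vehicle arrays, and the share of probe sets brighter than background was 81.7% to 87.6% for hormone, against 62.1% to 71.2% for vehicle. Hormone and this difference in array quality cannot be told apart in efferent ducts, whereas castrated against sham, and testosterone against estradiol, each lie within 1 quality set. The highest ratio, 3.87, was on castrated vehicle replicate 1. Summed markers of efferent duct epithelium (Lrp2, Cubn, Amn, Esr1 and Pax8) were 2261 to 5314 in efferent ducts and 1124 to 2198 in caput, and summed markers of caput principal cells were 72.3 to 7838 in efferent ducts and 7887 to 69142 in caput. Fewer cells of a type and less RNA per cell cannot be told apart in such bulk tissue.

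In sham-operated mice, 5 of the 7 genes differed between the tissues: Slc9a3, Slc26a3, Slc4a4 and Car2 were higher in efferent ducts than in caput and Aqp9 was lower. Slc9a3, the apical sodium/proton exchanger NHE3, had 507 and 513 intensity units in efferent ducts, against 35.1 and 24.1 in caput, a 17.5-fold difference (log2 4.13, SE 0.78, adjusted p = 0.00135). Slc26a3, an apical chloride/bicarbonate exchanger, had 1597 and 1500.4 in efferent ducts, against 197.5 and 153 in caput, 8.90-fold higher (log2 3.15, SE 0.47, adjusted p = 0.000326). By these probe sets both exchangers were higher in efferent ducts with no overlap between the tissues. The size for Slc26a3 depended on the probe set: a second set had 235 and 217 units in efferent ducts and 99.1 and 94.8 in caput (log2 1.22, adjusted p = 0.0972), and another had 182 and 125 in efferent ducts and 138 and 108 in caput, with overlap (log2 0.30, adjusted p = 0.56). The remaining set had 218 and 168 in efferent ducts and was not above background in either sham caput array. Slc4a4, the electrogenic sodium/bicarbonate cotransporter NBCe1, was 3.14-fold higher in efferent ducts by its brightest probe set (log2 1.65, SE 0.19, adjusted p = 5.16e-05), with 1950.4 and 1895 units against 645.5 and 579.8 in caput. Car2, a cytosolic carbonic anhydrase, was 2.03-fold higher (log2 1.02, SE 0.25, adjusted p = 0.00571), with 909.9 and 753 units in efferent ducts and 379 and 437 in caput. Aqp9, a channel for water and small solutes such as glycerol in principal cells, was 2.41-fold lower in efferent ducts (log2 -1.27, SE 0.33, adjusted p = 0.0081), with 185 and 129 units against 356 and 389 in caput. Its second probe set had 38.2 and 26.7 units in efferent ducts, against 274 and 239 in caput (log2 -3.00, adjusted p = 0.000536), the same direction with a larger difference.

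Cftr, the cyclic AMP-activated chloride channel, did not pass this test, with 127 and 122 units in efferent ducts and 155 and 187 in caput (log2 -0.45, 95% interval -1.29 to 0.39, adjusted p = 0.339). Aqp1, a water channel of resorbing epithelia and of endothelium, did not pass either, with 497 and 513 units in efferent ducts and 370.0 and 464 in caput (log2 0.29, 95% interval -0.20 to 0.77). Of all genes, 54.4% passed between the sham tissues, so a gene that passed was not unusual. The median log2 difference was 1.02 over the 7 genes and -0.30 over all genes. Under quantile normalization Car2 was 0.66 and did not pass (adjusted p = 0.0675), and under centring Aqp9 was -0.87 and did not pass (0.0562) while Aqp1 was 0.68 and did (0.0306). Without efferent duct sham replicate 2, Aqp9 did not pass either (log2 -1.01, adjusted p = 0.0623). The 4 adipocyte markers measured were each higher in efferent ducts than in caput, with sums of 6851 and 5902 against 831 and 536, and 5 of 6 ciliated cell markers were higher (3177 and 3260 against 373 and 438). Their part was not tested. The tissue difference of Slc4a4 rests on 1 probe set, since 3 of its other sets gave -0.23, -0.26 and -0.32, and it was 0.38 (adjusted p = 0.537) for the mean of all its sets.

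Castration did not change any of the 7 genes past the threshold in efferent ducts, although 4 of them, Slc9a3, Slc26a3, Car2 and Aqp1, were lower at an unadjusted p under 0.05 in limma, as 2879 of the 18194 genes differed in either direction. Slc9a3 had 19.1 and 81.3 units in castrated efferent ducts, against 507 and 513 in sham, a 12.9-fold lower geometric mean (log2 -3.69, SE 0.74, 95% interval -5.54 to -1.84, adjusted p = 0.117). Slc26a3 had 163 and 570 units in castrated efferent ducts, against 1597 and 1500.4 in sham (log2 -2.34, SE 0.60, adjusted p = 0.172). In both exchangers the castrated arrays lay below the sham arrays, but differed from each other by more than 3 times, castrated replicate 1 being the lower. Without that array the differences were -2.65 for Slc9a3 (adjusted p = 0.151) and -1.44 for Slc26a3 (adjusted p = 0.194).

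Aqp1 and Car2 were lower in castrated efferent ducts with closer replicates. Aqp1 had 116 and 155 units in castrated efferent ducts and 497 and 513 in sham (log2 -1.92, SE 0.26, 95% interval -2.57 to -1.26), with the smallest adjusted p of the 7 genes, 0.0687. Car2 had 267 and 367 units in castrated efferent ducts and 909.9 and 753 in sham (log2 -1.40, SE 0.30, adjusted p = 0.127). Cftr and Aqp9 also had negative differences, but their intervals include 0. Cftr gave -0.90 (95% interval -2.11 to 0.31), with 48.1 and 92.5 units against 127 and 122 in sham. Aqp9 gave -0.85 (95% interval -1.92 to 0.21), with 72 and 101 units against 185 and 129 in sham. Slc4a4 alone was not lower: it had 2076 and 2493 units in castrated efferent ducts and 1950.4 and 1895 in sham (log2 0.24, 95% interval -0.34 to 0.82).

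Only 0.291% of all genes passed in this comparison, 53 of 18194. The 7 genes had a median of -1.40, against 0.02 over all genes. The call depended on how the spread was estimated: with all 16 arrays in 1 model, Slc9a3 (adjusted p = 0.0271), Slc26a3 (0.0233), Car2 (0.014) and Aqp1 (0.00281) passed as lower, beside 991 genes in all. The same 4 genes passed with an intensity trend in the variance prior. Summed efferent duct epithelium markers were 4225 and 4480 in castrated efferent ducts, against 5314 and 5092 in sham, and 0 of 5 passed (1 at an unadjusted p under 0.05). Summed endothelial markers were 1031 and 646 against 698 and 729 in sham, again with 0 of 10 passing (1 unadjusted). Summed caput principal cell markers were 529 and 72.3 against 2895 and 7838 in sham, all 8 of them lower and 0 past the threshold (2 unadjusted). Smooth muscle markers, with sums of 4346 and 2984 against 4695 and 4485 in sham, were 6 of 6 lower (median log2 -0.92, 0 past the threshold and 3 unadjusted). Germ cell markers, with sums of 1094 and 1444 against 1350.4 and 1297, were 5 of 6 lower (median -2.23, 0 past the threshold and 1 unadjusted). The part of these in the gene differences was not tested.

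**Figure D1:**
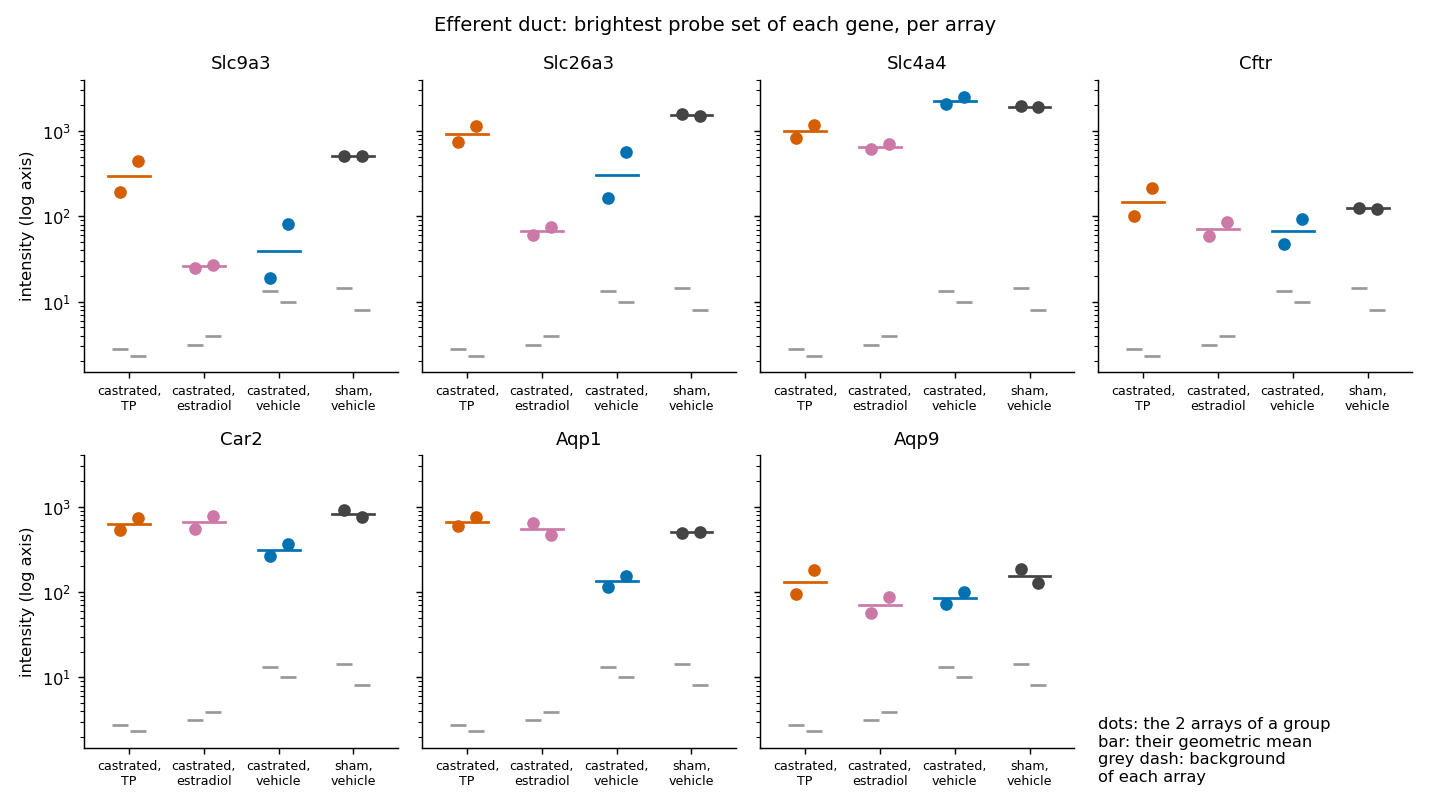
Intensity of each gene's brightest probe set in efferent ducts (log axis, linear intensity units), 1 point per array, with testosterone propionate, estradiol, castrated vehicle and sham vehicle from left to right. Bars are geometric means of 2 arrays and grey dashes are the array backgrounds. Slc9a3 and Slc26a3 are high in sham and testosterone arrays and low in estradiol arrays, whereas Aqp1 is low in the castrated vehicle arrays alone.

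Testosterone propionate was followed in castrated efferent ducts by higher Aqp1, Slc9a3 and Car2 and lower Slc4a4 than vehicle, 4 of the 7 genes. Aqp1 had 594 and 755 units in testosterone-treated efferent ducts, against 116 and 155 with vehicle, 5.0-fold higher (log2 2.32, SE 0.26, adjusted p = 0.00541). Slc9a3 had 195 and 444 units with testosterone, against 19.1 and 81.3 with vehicle, 7.45-fold higher (log2 2.90, SE 0.74, adjusted p = 0.0319). All testosterone arrays of these 2 genes lay above all castrated vehicle arrays, as did those of Car2, Slc26a3 and Cftr. Car2 had 540.0 and 738 units with testosterone and 267 and 367 with vehicle (log2 1.01, SE 0.30), passing by little (adjusted p = 0.0497). Slc4a4 fell to 839 and 1170.3 units with testosterone, against 2076 and 2493 with vehicle (log2 -1.20, SE 0.23, adjusted p = 0.015).

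The anion exchanger Slc26a3 had 741 and 1147 units with testosterone, against 163 and 570 with vehicle (log2 1.59, 95% interval 0.09 to 3.10), and did not pass (adjusted p = 0.0914). Without castrated replicate 2 it passed (log2 2.50, adjusted p = 0.0183), and without castrated replicate 1 the difference was 0.69 (adjusted p = 0.204). Cftr had 102 and 213 units with testosterone and 48.1 and 92.5 with vehicle (log2 1.14, 95% interval -0.06 to 2.35). Aqp9 had 95.1 and 179.9 units with testosterone and 72 and 101 with vehicle, and its arrays overlapped (log2 0.61, 95% interval -0.45 to 1.68).

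Of all genes, 35.5% passed between testosterone and vehicle in efferent ducts, and the 2 groups lie in different quality sets, so the 4 of 7 genes are to be read against that share. The median was 1.14 over the 7 genes and 0.23 over all genes, and that of all genes was -0.03 after quantile normalization and -0.68 after centring each array on its median. Relative to those shifts, Aqp1 was higher under both scalings (log2 2.11 and 1.41, adjusted p = 0.0138 and 0.0153). Slc9a3 was 2.38 and 1.99 and no longer passed (adjusted p = 0.103 and 0.0892). Car2 was 0.96 and 0.10 (adjusted p = 0.0935 and 0.819), and Slc4a4 was -0.43 and -2.11 (adjusted p = 0.259 and 0.00345). Leaving out each array in turn, Aqp1 passed in 4 of 4 fits, Slc4a4 in 2 of 4, Slc9a3 in 1 of 4 and Car2 in 0 of 4. Slc9a3 passed without castrated replicate 2 alone (log2 3.94), and Slc4a4 did not pass without castrated replicate 2 (adjusted p = 0.0565) or testosterone replicate 1 (0.0676).

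Estradiol was followed in castrated efferent ducts by higher Aqp1 and Car2 and by lower Slc4a4 and Slc26a3. Aqp1 had 642 and 467 units with estradiol, against 116 and 155 with vehicle, 4.09-fold higher (log2 2.03, SE 0.26, adjusted p = 0.00766). Car2 had 552 and 787 units with estradiol and 267 and 367 with vehicle (log2 1.07, SE 0.30, adjusted p = 0.0466). The estradiol and vehicle arrays did not overlap for either gene. Slc26a3 fell to 60.9 and 75.6 units with estradiol, against 163 and 570 with vehicle, 4.50-fold lower (log2 -2.17, SE 0.60, adjusted p = 0.0449). Slc4a4 fell to 614 and 705 units with estradiol, against 2076 and 2493 with vehicle, 3.46-fold lower (log2 -1.79, SE 0.23, adjusted p = 0.00766). Slc9a3 was low in both groups, with 25.1 and 26.9 units with estradiol inside the span of 19.1 to 81.3 with vehicle (log2 -0.60, 95% interval -2.45 to 1.24). Cftr, with 59.0 and 86.4 units against 48.1 and 92.5, and Aqp9, with 56.4 and 87.6 against 72 and 101, overlapped as well.

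Here 30.7% of all genes passed, with a median of -0.28 over the 7 genes and 0.25 over all genes, that of all genes being -0.04 after quantile normalization and -0.53 after centring. Aqp1 (1.76 and 1.26), Slc26a3 (-2.65 and -2.94) and Slc4a4 (-1.23 and -2.57) passed under both scalings, and Car2 (1.07 and 0.30, adjusted p = 0.0752 and 0.513) did not. Leaving out each array in turn, Aqp1 and Slc4a4 passed in 3 of 4 fits each, Slc26a3 in 1 of 4 and Car2 in 0 of 4. Without estradiol replicate 1, the adjusted p was 0.0557 for Aqp1 and 0.0569 for Slc4a4. Slc26a3 passed only without castrated replicate 1 (log2 -3.07), and without castrated replicate 2 it was -1.27 (adjusted p = 0.0658). Summed endothelial markers were 2024.5 and 1614 with testosterone and 2744 and 1809.6 with estradiol, against 1031 and 646 with vehicle. Of the 10 markers 6 and 7 rose, where 4226 and 3637 of the 18194 genes did. Summed efferent duct epithelium markers were 2261 and 3408 with testosterone and 2515 and 2993 with estradiol, against 4225 and 4480 with vehicle. At an unadjusted p under 0.05 in limma, 5 of 6 ciliated cell markers differed in either direction with each hormone. So did 3 and 4 of 4 adipocyte and 5 and 3 of 6 smooth muscle markers. Fewer did of efferent duct epithelium (2 of 5 with each) and caput principal cells (1 and 0 of 8). Of 52 other transport genes, 31 and 21 did. Of all genes at least 35.5% and 30.7% did, since those shares passed the adjusted threshold. The full unadjusted shares of all genes are not given here, so these counts are not read as unusual. Aqp1 is also made by endothelium, and the part of these cell types and of array quality in the differences was not tested.

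Set against each other in efferent ducts, testosterone and estradiol differed most in the 2 apical exchangers. Slc26a3 had 741 and 1147 units with testosterone, against 60.9 and 75.6 with estradiol, a 13.6-fold difference (log2 3.76, SE 0.60, 95% interval 2.26 to 5.27, adjusted p = 0.207). Slc9a3 had 195 and 444 units with testosterone, against 25.1 and 26.9 with estradiol, an 11.3-fold difference (log2 3.50, SE 0.74, 95% interval 1.65 to 5.35, adjusted p = 0.316). Every testosterone array lay above every estradiol array for both genes, but neither passed, and 0% of all genes passed limma's adjusted threshold in this comparison, where 1467 had an unadjusted p under 0.05. The smallest adjusted p of any gene was 0.0745. With all 16 arrays in 1 model, 132 genes passed and Slc26a3 was among them (adjusted p = 0.011). With an intensity trend in the variance prior, 118 passed, with Slc26a3 (adjusted p = 0.0051) and Slc9a3 (0.0229) among them.

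The other 5 genes were closer between the hormones. Aqp1 differed by 0.29 (95% interval -0.37 to 0.95) and Car2 by -0.06 (95% interval -0.82 to 0.69), with overlapping arrays in both. These intervals leave room for differences of more than 1.5 times in at least 1 direction for each gene. Cftr gave 1.05 (95% interval -0.16 to 2.25), Aqp9 gave 0.90 (95% interval -0.17 to 1.97) and Slc4a4 gave 0.59 (95% interval 0.01 to 1.17, adjusted p = 0.612). Testosterone arrays were above estradiol arrays for these 3 genes, none of which passed. The median was 0.90 over the 7 genes and 0.01 over all genes. Of the efferent duct epithelium markers, 0 of 5 passed, and 0 at an unadjusted p under 0.05. Actin 3′ to 5′ ratios were within 1 set, from 0.91 to 1.93.

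The order of mean level in efferent ducts is given here by the brightest probe set of each gene. Slc9a3 ran from sham through testosterone and castrated vehicle to estradiol, and the castrated and estradiol arrays overlapped. Slc26a3 had the same order with no overlap between neighbours. A second Slc26a3 set had 244 and 359 units with testosterone, above 235 and 217 in sham. In another, 131 and 231 with testosterone overlapped 182 and 125 in sham. In the remaining set, 87.1 and 233 with testosterone overlapped 218 and 168 in sham, and the castrated and estradiol arrays overlapped too. Slc4a4 ran from castrated vehicle through sham and testosterone to estradiol, again without overlap. In its other sets above background on all efferent duct arrays, the sham and castrated vehicle arrays overlapped. Cftr was highest with testosterone, whose arrays enclosed the sham arrays, and the estradiol arrays lay within the span of the castrated vehicle arrays. Car2 was highest in sham, then estradiol, whose arrays overlapped both the sham and the testosterone arrays, and lowest in castrated vehicle. Aqp1 was highest with testosterone, then estradiol, whose arrays overlapped both the testosterone and the sham arrays, and lowest in castrated vehicle. Aqp9 was highest in sham, and each of its neighbours in the order sham, testosterone, castrated vehicle and estradiol overlapped.

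The RefSeq windows (GRCm38.p6) from 250 bases before to 50 after the annotated start are shown for Slc9a3 and Slc26a3. By their brightest probe sets these 2 exchangers had the same order over the 4 efferent duct groups. Capitals mark single arms of the binding motifs of the receptors for the 2 hormones, GGTCA for estrogen receptors and AGAACA for the androgen receptor, searched on both strands. Slc9a3 lies at chr13:74086255-74169442 and its window at chr13:74121163-74121462 on the plus strand. Slc26a3 lies at chr12:31433142-31473922 and its window at chr12:31437969-31438268 on the plus strand.
Slc9a3: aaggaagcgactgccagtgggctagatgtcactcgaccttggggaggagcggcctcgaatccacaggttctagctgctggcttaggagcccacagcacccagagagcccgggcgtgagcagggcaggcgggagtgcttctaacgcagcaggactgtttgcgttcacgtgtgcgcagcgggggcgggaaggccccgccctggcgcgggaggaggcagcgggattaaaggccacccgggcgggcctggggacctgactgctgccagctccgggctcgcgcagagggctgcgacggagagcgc
Slc26a3: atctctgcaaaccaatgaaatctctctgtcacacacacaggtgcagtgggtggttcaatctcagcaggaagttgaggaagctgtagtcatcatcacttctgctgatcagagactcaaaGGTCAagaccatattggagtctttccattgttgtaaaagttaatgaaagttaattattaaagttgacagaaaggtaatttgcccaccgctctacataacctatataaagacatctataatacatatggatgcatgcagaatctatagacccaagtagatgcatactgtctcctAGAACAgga
The Slc26a3 window holds an estrogen receptor motif arm that begins at -132 and an androgen receptor motif arm that begins at 41, counted from the start site, and the Slc9a3 window holds neither. Such single arms are common: of 32851 windows, 40.5% hold the first and 19.0% the second. Of the 8 windows found for 6 of the 7 genes, with none found for Car2, those of Cftr and Aqp1 hold neither motif arm, 1 of 2 for Slc4a4 holds an estrogen receptor motif arm, and those of Aqp9 hold 1 kind each. None holds a full palindrome of either receptor, which occurs in 0.07% of all windows for the estrogen receptor and in 0.00913% for the androgen receptor.

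In caput, castration lowered 4 of the 7 genes, Slc4a4, Aqp9, Car2 and Cftr, and raised Slc26a3. Slc4a4 had 185 and 189 units in castrated caput, against 645.5 and 579.8 in sham, 3.27-fold lower (log2 -1.71, SE 0.15, adjusted p = 0.0063). Aqp9 had 171 and 165 units in castrated caput, against 356 and 389 in sham, 2.22-fold lower (log2 -1.15, SE 0.12, adjusted p = 0.00891). Car2 had 183 and 216 units in castrated caput, against 379 and 437 in sham, 2.05-fold lower (log2 -1.04, SE 0.17, adjusted p = 0.0218). The bicarbonate cotransporter, the solute channel and the carbonic anhydrase were thus each lower in castrated caput. Cftr had 96.9 and 106 units in castrated caput and 155 and 187 in sham (log2 -0.75, SE 0.15, adjusted p = 0.035).

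Slc26a3 went the other way, with 591 and 450.1 units in castrated caput, against 197.5 and 153 in sham, 2.97-fold higher (log2 1.57, SE 0.20, adjusted p = 0.0129). Aqp1 had 279 and 252 units in castrated caput and 370.0 and 464 in sham (log2 -0.64, 95% interval -1.04 to -0.25), and missed the threshold by little (adjusted p = 0.0544). It passed without the 40% of genes that were dimmest (adjusted p = 0.0129), under quantile normalization (0.0487) and under centring (0.0345). Slc9a3 was near background in caput, with 15 and 14.1 units in castrated and 35.1 and 24.1 in sham (log2 -1.0, 95% interval -2.84 to 0.83).

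Of all genes, 14% passed in this comparison, and the median was -1.0 over the 7 genes and 0.06 over all genes. Leaving out each array in turn, Slc4a4 passed in 4 of 4 fits, Slc26a3 and Aqp9 in 1 of 4 each, and Cftr and Car2 in 0 of 4, while the directions of these 5 stayed. Slc26a3 passed only without castrated replicate 2, and Aqp9 only without castrated replicate 1. In these fits the adjusted p was at most 0.0601 for Slc26a3, 0.0572 for Aqp9, 0.0973 for Car2 and 0.14 for Cftr. Summed caput principal cell markers were 10320 and 10740 in castrated caput, against 69142 and 68552 in sham, and 6 of 8 fell. Summed markers of clear and narrow cells were 1860 and 1992, against 955 and 1035 in sham, and 3 of 4 rose. Summed germ cell markers were 408 and 404, against 5100 and 1351 in sham, and 5 of 6 fell. Their part in the gene differences was not tested.

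**Figure D2:**
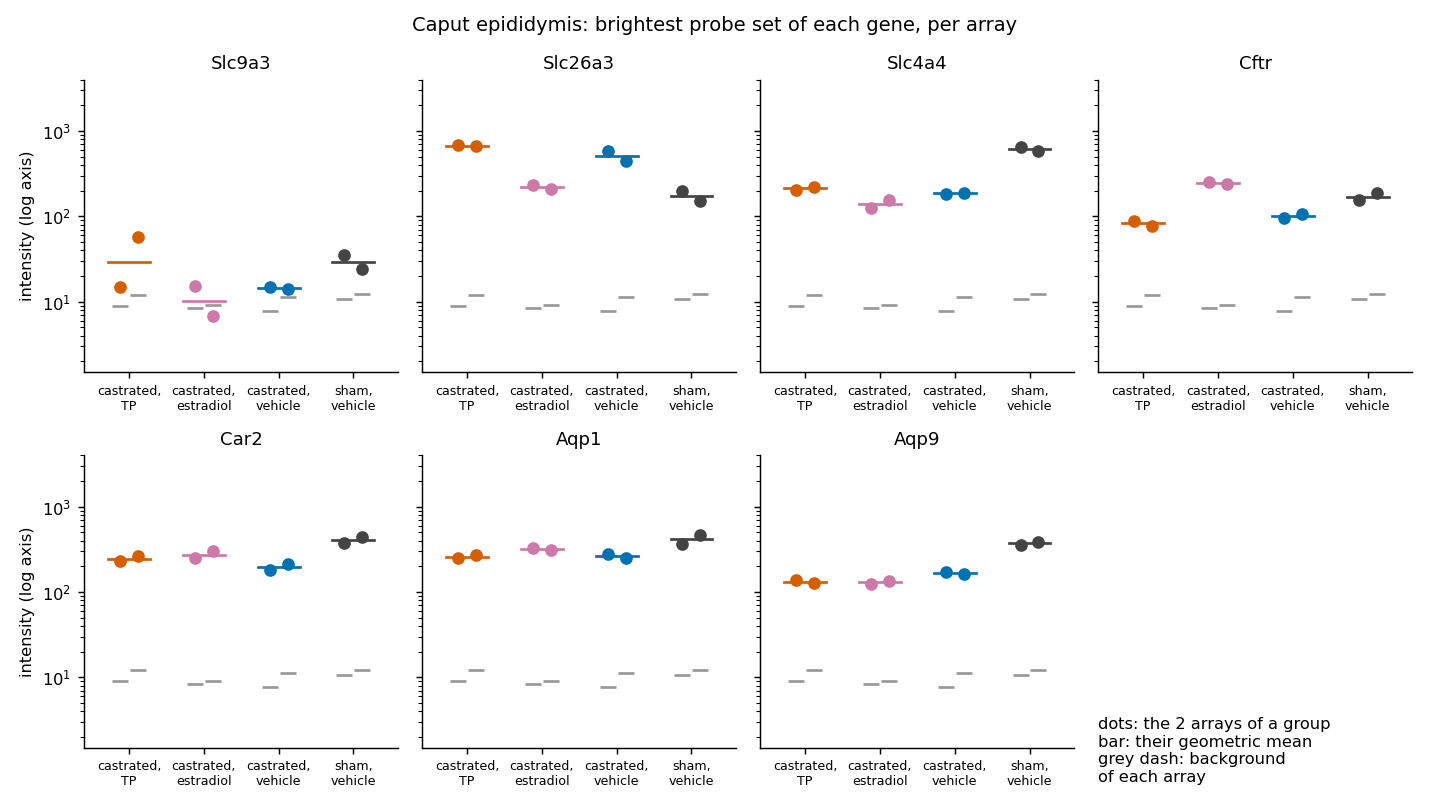
Intensity of each gene's brightest probe set in caput epididymis (log axis, linear intensity units), 1 point per array, drawn as for efferent ducts. Slc26a3 is lowest in sham arrays, Slc4a4, Car2, Aqp1 and Aqp9 are highest in sham arrays, Cftr is highest with estradiol, and Slc9a3 lies near the background dashes.

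In castrated caput 0 of the 7 genes passed between testosterone and vehicle in limma, where 1.67% of all genes did, and 1, Aqp9, had an unadjusted p under 0.05, as did 3459 of all genes. The median was 0.19 over the 7 genes and -0.05 over all genes. The largest difference was that of Slc9a3, with 14.9 and 57.2 units with testosterone and 15 and 14.1 with vehicle, a difference carried by 1 array (log2 1.01, adjusted p = 0.515). Slc26a3 had 686 and 664 units with testosterone and 591 and 450.1 with vehicle (log2 0.39, 95% interval -0.11 to 0.89). For Slc4a4 by its brightest probe set, with 205 and 221 units against 185 and 189, the testosterone arrays lay far below the sham arrays at 645.5 and 579.8. Other Slc4a4 sets differed in this. A second set had 92.6 and 103 units with testosterone, 49.0 and 49.8 with vehicle and 147 and 128 in sham. Another had 64.1 and 113, 45.0 and 47.4, and 122 and 150. A further set had 123 and 117, 113 and 99.8, and 303 and 241. Aqp9 had 138 and 128 units with testosterone and 171 and 165 with vehicle (log2 -0.34, 95% interval -0.64 to -0.04, adjusted p = 0.212). Its second probe set had 34.3 and 40.2 units with testosterone, against 126 and 111 with vehicle (log2 -1.67), and did not pass over all probe sets (adjusted p = 0.0797). Car2 (0.32), Aqp1 (-0.02) and Cftr (-0.29) were within 0.4 of 0 on the log2 scale.

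Estradiol in castrated caput went with higher Cftr and lower Slc26a3, neither of which passed, and 0% of all genes passed limma's adjusted threshold, where 2637 had an unadjusted p under 0.05. Cftr had 253 and 237 units with estradiol, against 96.9 and 106 with vehicle (log2 1.27, SE 0.15, 95% interval 0.89 to 1.65, adjusted p = 0.0741). Slc26a3 had 233 and 212 units with estradiol, against 591 and 450.1 with vehicle (log2 -1.21, SE 0.20, 95% interval -1.72 to -0.71, adjusted p = 0.115). Neither gene's arrays overlapped, and the smallest adjusted p of any gene was 0.0501. Without the 40% of genes that were dimmest, both passed (Cftr 0.00622, Slc26a3 0.016), and both passed with an intensity trend (Cftr 0.00185, Slc26a3 0.00263), where 724 genes did. Car2 (0.47, 95% interval 0.04 to 0.90), Aqp1 (0.28), Slc4a4 (-0.41), Aqp9 (-0.37) and Slc9a3 (-0.52) did not pass. The second probe set of Aqp9 had 56.7 and 32.1 units with estradiol, against 126 and 111 with vehicle, without overlap, so it was lower with either hormone. The median was -0.37 over the 7 genes and 0.01 over all genes, and 5 of 7 had an unadjusted p under 0.05. The 4 adipocyte markers were each higher with estradiol than with vehicle (median log2 1.37), with sums of 1475 and 2943 against 301 and 2092 and none past the threshold, adjusted or unadjusted. Their part in the Cftr difference was not tested.

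Between the hormones in caput, Slc26a3 was higher and Cftr lower with testosterone than with estradiol, 2 of the 7 genes where 2.12% of all genes passed. Slc26a3 had 686 and 664 units with testosterone, against 233 and 212 with estradiol, 3.03-fold higher (log2 1.60, SE 0.20, adjusted p = 0.0344). Cftr had 88.4 and 78.0 units with testosterone, against 253 and 237 with estradiol, 2.95-fold lower (log2 -1.56, SE 0.15, adjusted p = 0.0216). The exchanger and the channel thus differed in opposite directions. Leaving out each array in turn, neither passed in any of 4 fits (adjusted p 0.122 to 0.145 for Slc26a3 and 0.0835 to 0.117 for Cftr), and neither passed with the replicate number as a block. Slc4a4 had 205 and 221 units with testosterone and 126 and 156 with estradiol (log2 0.60, 95% interval 0.22 to 0.98, adjusted p = 0.138). Slc9a3 gave 1.52 (95% interval including 0), Aqp1 -0.30, Car2 -0.15 and Aqp9 0.03. The median was 0.03 over the 7 genes and -0.06 over all genes. Summed clear and narrow cell markers were 1144 and 1102 with testosterone and 1118 and 1156 with estradiol, and 0 of 4 passed (1 unadjusted). The 4 adipocyte markers were each lower with testosterone (median log2 -2.40), with sums of 431 and 394 against 1475 and 2943 with estradiol, and 0 of 4 passed (2 unadjusted). The Gapdh 3′ to 5′ log2 ratio was -0.21 and -0.14 with testosterone, against -0.37 and -0.33 with estradiol, and the part of these was not tested.

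**Figure D3:**
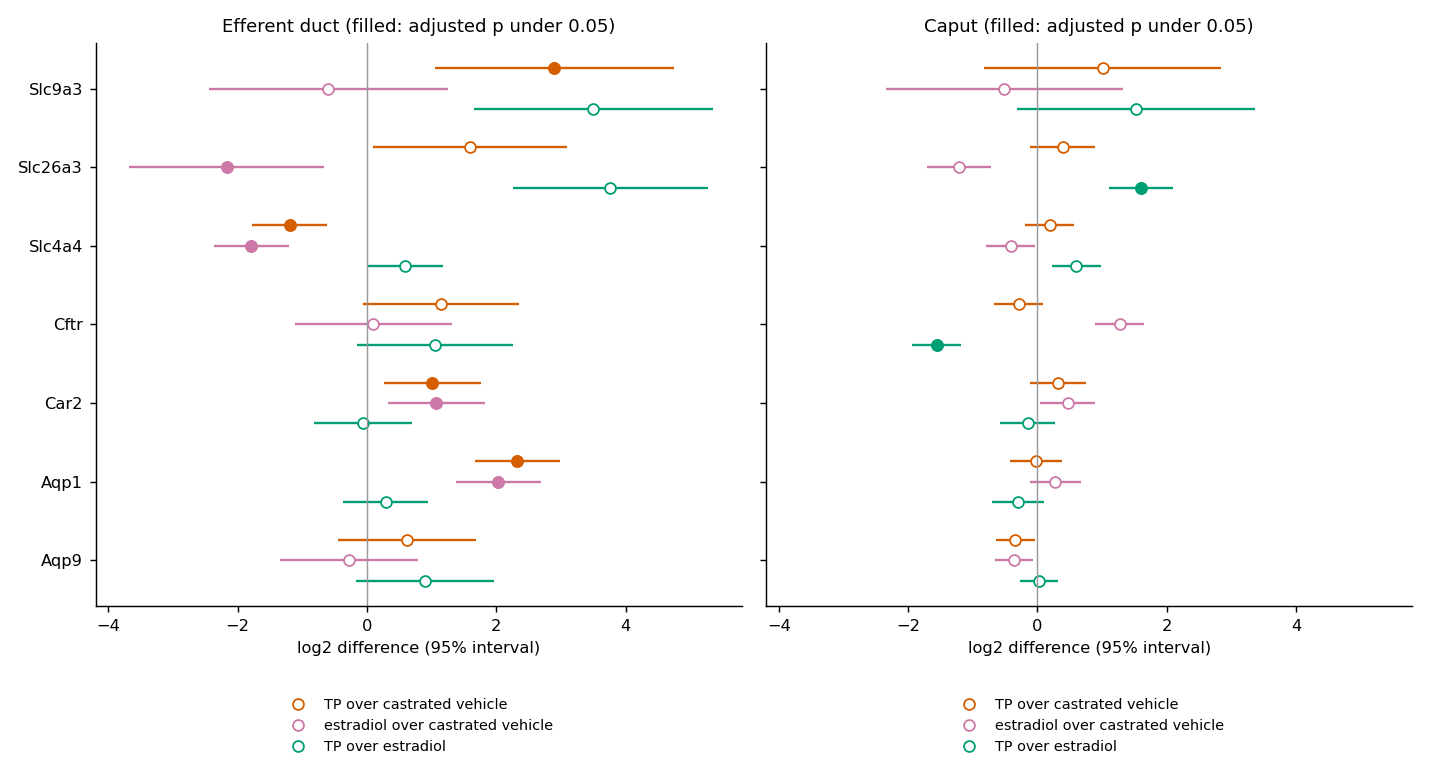
Log2 differences with 95% intervals for testosterone over castrated vehicle, estradiol over castrated vehicle and testosterone over estradiol, in efferent ducts and in caput (2 arrays per group). Filled symbols passed an adjusted p of 0.05. In efferent ducts Slc9a3 and Slc26a3 have the largest testosterone over estradiol values (3.50 and 3.76), and in caput Slc26a3 and Cftr lie at 1.60 and -1.56.

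The order of mean level in caput is likewise given by the brightest probe set of each gene. Slc26a3 ran from testosterone through castrated vehicle and estradiol to sham without overlap of neighbours. A second Slc26a3 set had 246 and 253 units with testosterone, 245 and 261 with vehicle, 106 and 84.8 with estradiol and 99.1 and 94.8 in sham. Another had 212 and 279, 295 and 237, 104 and 112, and 138 and 108. In both, testosterone overlapped castrated vehicle and estradiol overlapped sham. Slc4a4 ran from sham through testosterone and castrated vehicle to estradiol, and Cftr from estradiol through sham and castrated vehicle to testosterone, both without overlap. Car2 was highest in sham and lowest in castrated vehicle, with overlapping hormone arrays between. Aqp1 was highest in sham, then estradiol, with castrated vehicle and testosterone overlapping below. Aqp9 was highest in sham, then castrated vehicle, and its testosterone and estradiol arrays overlapped. The caput arrays of Slc9a3 overlapped in most groups, and estradiol replicate 2, at 6.75, was not above background.

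The effect of castration itself differed between the tissues for Slc26a3 and Slc4a4. Slc26a3 was lower in castrated than in sham efferent ducts (log2 -2.34) and higher in castrated than in sham caput (1.57), a difference between the effects of -3.91 (SE 0.67, 95% interval -5.42 to -2.40, adjusted p = 0.0204). Slc4a4 was close to its sham level in efferent ducts (0.24) and lower in caput (-1.71), a difference of 1.95 (SE 0.27, 95% interval 1.35 to 2.55, adjusted p = 0.00925). Of all genes, 3.23% passed this test, and the median was -0.37 over the 7 genes and -0.08 over all genes. Aqp1 had an effect of -1.92 in efferent ducts and -0.64 in caput, a difference of -1.27 (adjusted p = 0.0565) that passed without efferent duct castrated replicate 2 (-1.48, adjusted p = 0.0416). Slc9a3 (-2.69), Cftr (-0.15), Car2 (-0.37) and Aqp9 (0.29) did not pass. Leaving out each of 8 arrays in turn, Slc4a4 passed in 8 and Slc26a3 in 3 (-4.81 to -3.01), and neither passed with the mean of all probe sets (Slc4a4 0.96, adjusted p = 0.509; Slc26a3 -3.47, adjusted p = 0.0524). With the treatment and replicate number as a block, the adjusted p was 0.114 for Slc26a3 and 0.0741 for Slc4a4.

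**Figure D4:**
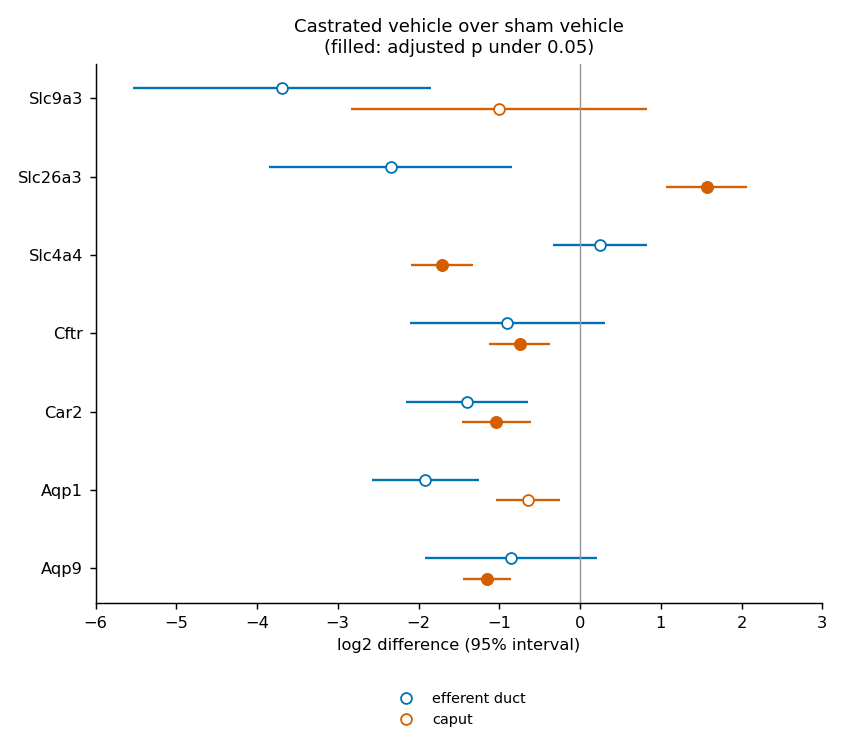
Log2 difference of castrated vehicle over sham vehicle with its 95% interval for each gene, in efferent ducts (blue) and caput (orange), 2 arrays per group. Filled symbols passed an adjusted p of 0.05. Slc26a3 lies below 0 in efferent ducts (-2.34) and above 0 in caput (1.57), and Slc4a4 lies near 0 in efferent ducts (0.24) and below 0 in caput (-1.71).

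The difference between testosterone and estradiol was not shown to differ between the tissues for any of the 7 genes, where 0.0495% of all genes passed and the medians were 0.87 and 0.07. The largest was Cftr, higher with testosterone in efferent ducts (1.05) and lower in caput (-1.56), a difference of 2.60 (95% interval 1.41 to 3.79, adjusted p = 0.173). Slc26a3 was higher with testosterone in both tissues, 3.76 in efferent ducts and 1.60 in caput (difference 2.16, 95% interval 0.65 to 3.67, adjusted p = 0.349). These 2 genes had an unadjusted p under 0.05 in limma, as did 1690 of all genes.

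Within efferent ducts the 4 probe sets of Slc26a3 had differences of the same sign, and those of Slc4a4 did not always. The 4 sets of Slc26a3 were higher with testosterone than with estradiol in efferent ducts by 3.44 to 4.15, and lower in castrated than in sham efferent ducts by -1.94 to -2.85, with none past the threshold over all probe sets. In caput, 3 of them rose with castration, by 1.57, 1.38 and 1.12 (adjusted p = 0.0206, 0.016 and 0.0477), and the dimmest was above background on 0 of 2 sham and 1 of 2 castrated arrays, so that it gives no difference there. The 4 brighter sets of Slc4a4 were lower in castrated than in sham caput by -1.35 to -1.71. With estradiol in efferent ducts they were lower than with vehicle by -1.05 to -1.83, but with testosterone they gave -1.20, -0.78, -0.14 and 0.32. The lower Slc4a4 with testosterone was thus not shared by all of its probe sets, whose positions on the transcript are not given in the sources used here. The fifth set of Slc4a4 and the second sets of Slc9a3 and Cftr were above background on 1, 9 and 4 of 16 arrays, and are not read further.

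**Figure D5:**
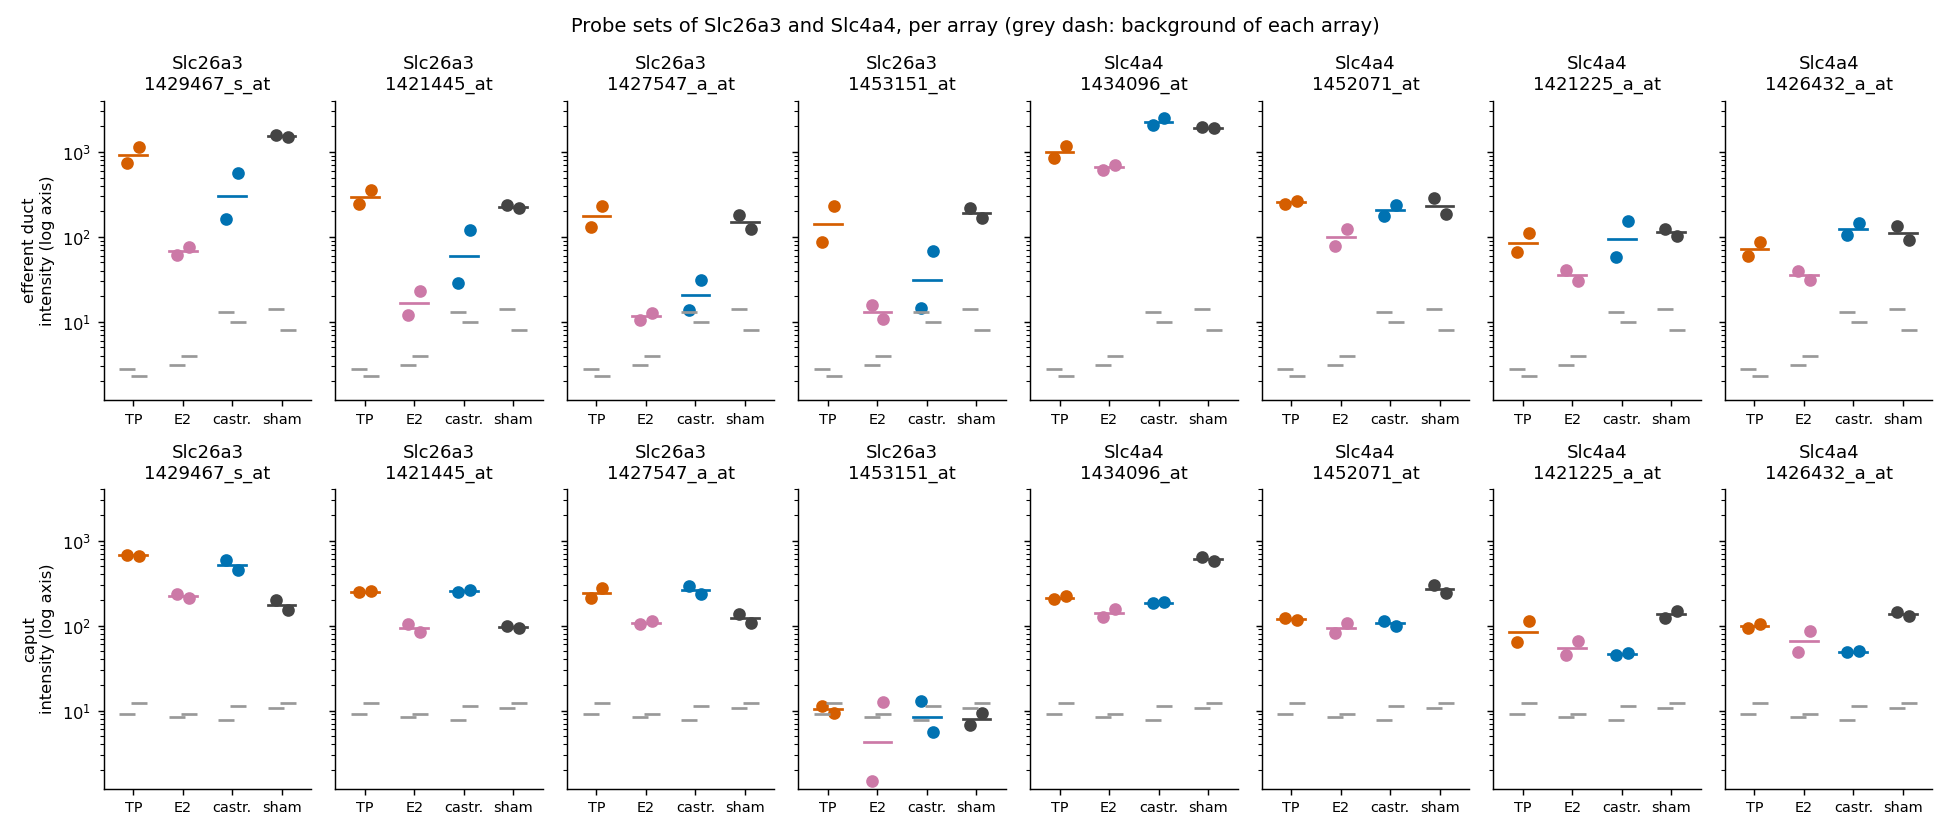
Intensity on every array (log axis, linear intensity units) of 8 probe sets, the 4 of Slc26a3 and the 4 brighter ones of Slc4a4, for each tissue, 1 point per array, with testosterone, estradiol, castrated vehicle and sham from left to right. The Slc26a3 sets share the low estradiol arrays in efferent ducts, while the Slc4a4 sets differ in how the testosterone arrays lie against the castrated vehicle arrays.

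Among the 7 genes, Slc9a3 and Slc26a3 ran together over the 8 efferent duct arrays (Pearson r = 0.944), Car2 and Aqp1 had r = 0.837, and Slc26a3 and Aqp1 had r = 0.182. In caput Slc4a4 and Aqp9 had r = 0.943 and Slc26a3 and Cftr had r = -0.889. Arrays of a group share their treatment, so these values describe the groups. Of the 10832 genes with at least 16 units on every efferent duct array, those most like Slc9a3 were Gstm7, Acsbg1 and Mlph (r = 0.987, 0.977 and 0.972), and those most like Slc26a3 were Tuft1, Foxred2 and Mlph (r = 0.986, 0.962 and 0.962). Mlph, which encodes the melanosome transport protein melanophilin, was thus near both exchangers. Those most like Aqp1 were Xpnpep1, Slc35b1 and Scfd1 (r = 0.986, 0.984 and 0.983), and Car2 was nearest to Sema3b (r = 0.995). The nearest to Slc4a4 was Rilpl1 (r = 0.991), to Cftr Fggy (r = 0.965) and to Aqp9 Slc27a2 (r = 0.974). In caput, of 11495 such genes, Slc26a3 was nearest to Ddx50 (r = 0.978), Slc4a4 to Lap3 (r = 0.995), Cftr to Adig (r = 0.992), Car2 to Cd81 (r = 0.979), Aqp1 to Ccz1 (r = 0.983), and Aqp9 to Ctbs and Sema3b (r = 0.996 and 0.995).

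The other genes of ion and water transport, 52 measured of 58 listed, included further exchangers and their scaffolds, carbonic anhydrases, sodium pump subunits, channels and aquaporins. In caput, 5 rose and 5 fell with castration, with a median of 0.12, where 14% of all genes passed (7.90% rose and 6.12% fell). Pdzk1, a scaffold of apical transporters, had 452.4 and 294.9 units in castrated caput, against 2558.5 and 2620.7 in sham (log2 -2.83, adjusted p = 0.018). Ezr, which encodes ezrin, a link between apical membrane proteins and actin, had 1382 and 1277 units, against 2924 and 2858 in sham (log2 -1.12, adjusted p = 0.00794). The 2 scaffolds fell, while Ano1, a calcium-activated chloride channel (1932 and 2057 units against 962 and 1183 in sham, log2 0.90, adjusted p = 0.0202), and Kcnq1, a potassium channel (379 and 399.8 against 209 and 209 in sham, log2 0.90, adjusted p = 0.0129), rose. In castrated efferent ducts 0 of the 52 passed limma's threshold against sham, 12 had an unadjusted p under 0.05 and the median was -0.04. The 12 are to be read against the unadjusted count of all genes given above for castration in efferent ducts. The castration effect on Ezr differed between the tissues (1.32, adjusted p = 0.0343).

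In efferent ducts 12 of the 52 rose and 10 fell between testosterone and vehicle, and 9 rose and 8 fell between estradiol and vehicle, against 35.5% and 30.7% of all genes passing, and the list medians were 0.64 and 0.25. Slc9a3r1, which encodes the scaffold NHERF1 that binds NHE3, fell to 1136 and 1479 units with testosterone and to 690.3 and 1042 with estradiol, against 4900.3 and 4727 with vehicle (log2 -1.89 and -2.50, adjusted p = 0.0071 and 0.00677). Fxyd5, a regulator of the sodium pump, rose to 792 and 380.2 units with testosterone and to 727 and 628 with estradiol, against 87.0 and 107 with vehicle (log2 2.51 and 2.81, adjusted p = 0.00797 and 0.00775). Car4, a carbonic anhydrase, rose as well (log2 3.07 with testosterone and 2.82 with estradiol, adjusted p = 0.0196 and 0.0282). Slc9a3r1, Fxyd5 and Car4 thus each moved the same way with either hormone, across the quality sets described above. Aqp5, a water channel of glands, had 256 and 290.2 units with estradiol, against 32.7 and 4.78 with vehicle, of which 1 was above background, so that no fold is given (adjusted p = 0.0185). In caput, Car14, a membrane-bound carbonic anhydrase, was the gene of this list that rose with testosterone against vehicle (101 and 93.4 units against 48.5 and 44.7, log2 1.06, adjusted p = 0.0318). With estradiol 0 passed in caput and 10 had an unadjusted p under 0.05 in limma. These are to be read against the unadjusted count of all genes given above for estradiol in caput. Between the hormones in caput, Car14 was higher (log2 1.35, adjusted p = 0.0177) and Kcnq1 lower (-0.87, adjusted p = 0.0371) with testosterone than with estradiol.

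Between the sham tissues, 11 of the 52 were higher in efferent ducts than in caput and 18 lower, with a median of -0.25, close to the 54.4% of all genes that passed. Slc9a3r1 was higher (log2 2.98, adjusted p = 1.6e-05), as were the sodium pump regulator Fxyd2 (3.51, adjusted p = 0.00316) and the carbonic anhydrase Car3 (3.16, adjusted p = 0.0021), which is abundant in adipocytes, whose markers were higher too. Ezr (-2.96, adjusted p = 1.54e-06), Fxyd3 (-2.64, adjusted p = 6.92e-05) and Pdzk1 (-2.29, adjusted p = 0.000493) were lower in efferent ducts. Transcripts of Slc9a3 and Slc9a3r1 were thus higher in sham efferent ducts than in sham caput, while those of the scaffolds Ezr and Pdzk1 were lower.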

How the data were processed

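Hybridisation intensities of 45101 probe sets were deposited by the authors for 16 one-colour arrays. The submitters' processing notes name RMA without a version, but the deposited intensity values are on a linear scale and each array has a trimmed mean of 125 (2% trimmed at each end), so they were taken as globally scaled intensities. How background was corrected is not given in the sources used here. The number of arrays limits the precision.

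Probe sets were named from the platform annotation: 34958 have 1 symbol, 932 several and 9211 none. Each gene took its brightest probe set. The deposited intensities were turned into log2 values and fitted with limma 3.58.1 (lmFit and eBayes, R 4.3.3) over the 8 arrays of a tissue, or over 16 for comparisons of tissues. P-values were adjusted by Benjamini-Hochberg over 18194 genes, with a threshold of 0.05, and the fit was tested on simulated data. Intervals are 95%. Python 3.11.15, pandas 2.3.3, numpy 2.4.6 and matplotlib 3.10.9 were used for the rest.

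All 7 genes are named, with up to 3 genes per tissue by Pearson r. Other transport genes named are some of the up to 4 with the largest log2 difference per comparison and direction. Those not above background in a group were left out unless said so, and not all of the rest are named. Pdzk1 is also named between the sham tissues, beside the other scaffolds. The genes and lists were chosen with earlier results of these data known. Replicate numbers showed no sign of pairing the samples: the correlations of deviations lay between -0.05 and 0.07. Weak correlations cannot show that arrays of the same number were unrelated. Alternatives were quantile normalization, centring, the mean of all probe sets, each probe set on its own, a floor of 16, dropping the 40% dimmest genes, a trend in the variance prior, other sets of arrays, a block for replicate number, and leaving out each array.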

Additional observations from a re-analysis of the deposited data

Results flagged for a closer look

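The effect of castration differed between efferent ducts and caput for 2 of the 7 genes by a test of the difference itself. For Slc26a3 it was -3.91 (log2, efferent duct minus caput, adjusted p = 0.0204), with 163 and 570 units in castrated efferent ducts against 1597 and 1500.4 in sham, and 591 and 450.1 units in castrated caput against 197.5 and 153 in sham. For Slc4a4 it was 1.95 (adjusted p = 0.00925), with 2076 and 2493 units in castrated efferent ducts against 1950.4 and 1895 in sham, and 185 and 189 units in castrated caput against 645.5 and 579.8 in sham. Tissue and labelling kit cannot be told apart in either.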

How the results depend on the processing

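The count of the 7 genes past the threshold moved with the setting in both tissues. In efferent ducts, castration over sham gave 0, but 3 without the 40% dimmest genes and 4 with a variance trend or with all 16 arrays in 1 model. Testosterone over vehicle gave 4, but 1 under quantile normalization, with the mean of probe sets or with only the arrays compared, 2 under centring or a floor of 16, and 1 to 3 leaving out 1 array. Estradiol over vehicle gave 4, but 1 with the mean of probe sets, 2 with each probe set, a floor or only the arrays compared, and 0 to 3 leaving out 1 array. Testosterone over estradiol gave 0, but 1 without dim genes or with 16 arrays and 2 with the trend. In caput, castration over sham gave 5, but 2 with the mean of probe sets, 3 with 16 arrays, 0 with only the arrays compared and 1 to 2 leaving out 1 array. Estradiol over vehicle gave 0, but 2 without dim genes or with the trend and 1 with a floor. Testosterone over estradiol gave 2, but 1 with each probe set, and 0 with the mean, 16 arrays, only the arrays compared or any 1 array left out. Sham efferent duct over caput gave 5, but 3 with the mean of probe sets. The castration effect between tissues gave 2, but 0 with the mean or only the arrays compared and 1 to 3 leaving out 1 array, and testosterone over estradiol between tissues gave 0, but 1 without dim genes or with the trend. With the replicate number as a block, though it showed no sign of pairing the samples, the count was 3 in efferent ducts for each hormone over vehicle, 4 for castration in caput, 0 for testosterone over estradiol in caput and 0 for the castration effect between tissues. Over all genes, castration in efferent ducts gave 53, but 426 without dim genes, 699 with the trend and 991 with 16 arrays. Scaling moved the split of higher and lower calls over all genes in efferent ducts for testosterone over vehicle (4226 and 2238; quantile 1823 and 2155, centred 1147 and 5625) and estradiol over vehicle (3637 and 1951; 1695 and 1949; 1132 and 4638). It did so in caput for castration (1437 and 1113; centred 864 and 1468) and testosterone over estradiol (204 and 182; centred 247 and 137), and between tissues in sham (4263 and 5640; centred 5403 and 4168) and for the castration effect (231 and 356; centred 291 and 171).

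Directions reversed only where the difference had not passed. With the mean of probe sets, Slc4a4 (-0.30) and Cftr (0.24) reversed for castration in efferent ducts, Cftr for testosterone (-0.93) and estradiol (-1.02) over vehicle there, Slc9a3 for estradiol over vehicle in efferent ducts (0.90) and caput (0.39), Aqp9 for testosterone over estradiol in caput (-0.088) and Cftr for the castration effect between tissues (1.66). Under quantile normalization and centring, Aqp9 reversed for testosterone over vehicle in efferent ducts (-0.23 and -0.30), and Cftr for estradiol over vehicle there (-0.65 and -0.68) and for the castration effect between tissues (0.18 and 0.050). Under quantile normalization Car2 (castration effect, 0.075) and Slc4a4 (testosterone over estradiol between tissues, 0.12) reversed, and under centring Aqp1 for testosterone over vehicle in caput (0.028) and Car2 for testosterone over estradiol between tissues (-0.17). Leaving out 1 array in turn gave values on both sides of 0 in efferent ducts for estradiol over vehicle in Slc9a3 (-1.65 to 0.44), Cftr (-0.37 to 0.57) and Aqp9 (-0.60 to 0.035), and for testosterone over estradiol in Car2 (-0.32 to 0.19). It did so in caput for testosterone over vehicle in Aqp1 (-0.097 to 0.049), estradiol over vehicle in Slc9a3 (-1.10 to 0.074) and testosterone over estradiol in Aqp9 (-0.029 to 0.081). Between tissues it did so for the castration effect in Cftr (-0.63 to 0.32), and for testosterone over estradiol in Slc4a4 (-0.25 to 0.23) and Car2 (-0.17 to 0.35). The cause of these changes was not tested.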
